A study of Rattus norvegicus with 14 samples.

Results

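A set of 10 genes of adenosine metabolism and ATP signalling was followed in rat peripheral blood mononuclear cells (PBMC): the channel Panx1, the ATP receptors P2rx4 and P2rx7, the cell surface enzymes Entpd1 and Nt5e, the adenosine receptors Adora2a and Adora2b, the nucleoside transporter Slc29a1 and the intracellular enzymes Adk and Ada. The genes were listed by symbol with earlier results of these data known, so counts of members are not independent of the data. Every probe set that the array annotation pairs with 1 of these symbols and no other was taken, whatever its signal. This gave 14 probe sets for 10 genes, of 31042 probe sets and 14217 genes on the Affymetrix rat array. MTXMS_A were arthritic rats after 34 days of mechanical stimulation (MS) with methotrexate, MS_A were arthritic rats after 34 days of MS alone, CIA_B were arthritic rats before therapy, NOCIAMS_A were healthy rats after 34 days of MS and NOCIA_B were healthy rats before therapy. Each group had 3 arrays, except CIA_B with 2. All animals were female Wistar rats, arthritis was collagen-induced (bovine type II collagen in Freund's adjuvant), and MS was the insertion and turning of a thin needle at points of the lower back and below the knee, which the labels call acupuncture. Among these 14 arrays none is of unstimulated rats at day 34, so therapy and elapsed time cannot be told apart in a comparison of a later with an earlier group. Ages were not in the labels read.

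ATP that leaves a stressed or stretched cell, for example through pannexin channels, opens P2X receptors and acts as an alarm signal in inflammation. CD39 (Entpd1) and CD73 (Nt5e) on the cell surface convert this ATP stepwise to adenosine, which acts on receptors such as A2a and A2b to restrain many leukocytes. Adenosine is cleared by uptake through equilibrative transporters, followed by phosphorylation by Adk or deamination by Ada, and methotrexate is known to raise extracellular adenosine.

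The values are deposited MAS5 signals, an intensity on a linear scale, and were compared as log2 signal. Median signal ranged over the 14 arrays between 104 and 149. A probe set was tested when its signal lay above the array median on at least 2 arrays, which held for 18515 probe sets. Of the members, 11 of 14 probe sets for 9 of 10 genes passed, and P2rx7 and 2 of the 3 probe sets of Panx1 did not. A pair of arrays stood apart from the rest: NOCIA_B replicate 3 had a mean correlation of 0.86 with the other arrays and MTXMS_A replicate 3 one of 0.887, against 0.896 to 0.91 for the remaining 12. The actin ratio (3' over 5' signal, a sign of RNA degradation) was 5.01 in MTXMS_A replicate 3, the highest of all, and 3.13 and 3.15 in the other 2 MTXMS_A arrays. It lay between 2.44 and 2.69 in MS_A, was 2.77 and 2.83 in CIA_B, and lay between 3.35 and 4.36 in NOCIAMS_A and between 1.97 and 3.01 in NOCIA_B. It was thus separated between the groups in MTXMS_A against MS_A, MTXMS_A against CIA_B and NOCIAMS_A against NOCIA_B (higher) and in MS_A against NOCIAMS_A and MS_A against CIA_B (lower), and its part in the member values was not tested. Of the markers of the labelled cells, 9 of 9 T cell, 6 of 6 NK cell and 5 of 6 monocyte genes on the array passed the filter on low signal (Cd163 did not). So did 7 of 7 neutrophil, 9 of 9 platelet and 7 of 7 erythroid markers. In such bulk samples, fewer cells of a type and less RNA per cell cannot be told apart. Blood was drawn when an animal was killed, so replicates were read as separate animals, and p-values measure only the spread between these samples.

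No member passed a Benjamini-Hochberg adjustment over all tested probe sets (limma, adjusted p of 0.05) in any of 6 comparisons, and neither did any other probe set. At an unadjusted p of 0.05, members passed 1 time in MS_A against CIA_B, 0 times in MTXMS_A against CIA_B, 3 times in CIA_B against NOCIA_B, 1 time in NOCIAMS_A against NOCIA_B, 2 times in MTXMS_A against MS_A and 1 time in MS_A against NOCIAMS_A, of 11 each. Over all tested probe sets this share was 7.83%, 5.4%, 8.47%, 6.18%, 14.8% and 5.68% in the same order. Each log2 fold change below is positive when the group named first is higher, and is given with its standard error (SE), while "the thresholds of the study" are an unadjusted p of 0.05 together with a fold of 2.

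**Figure D1:**
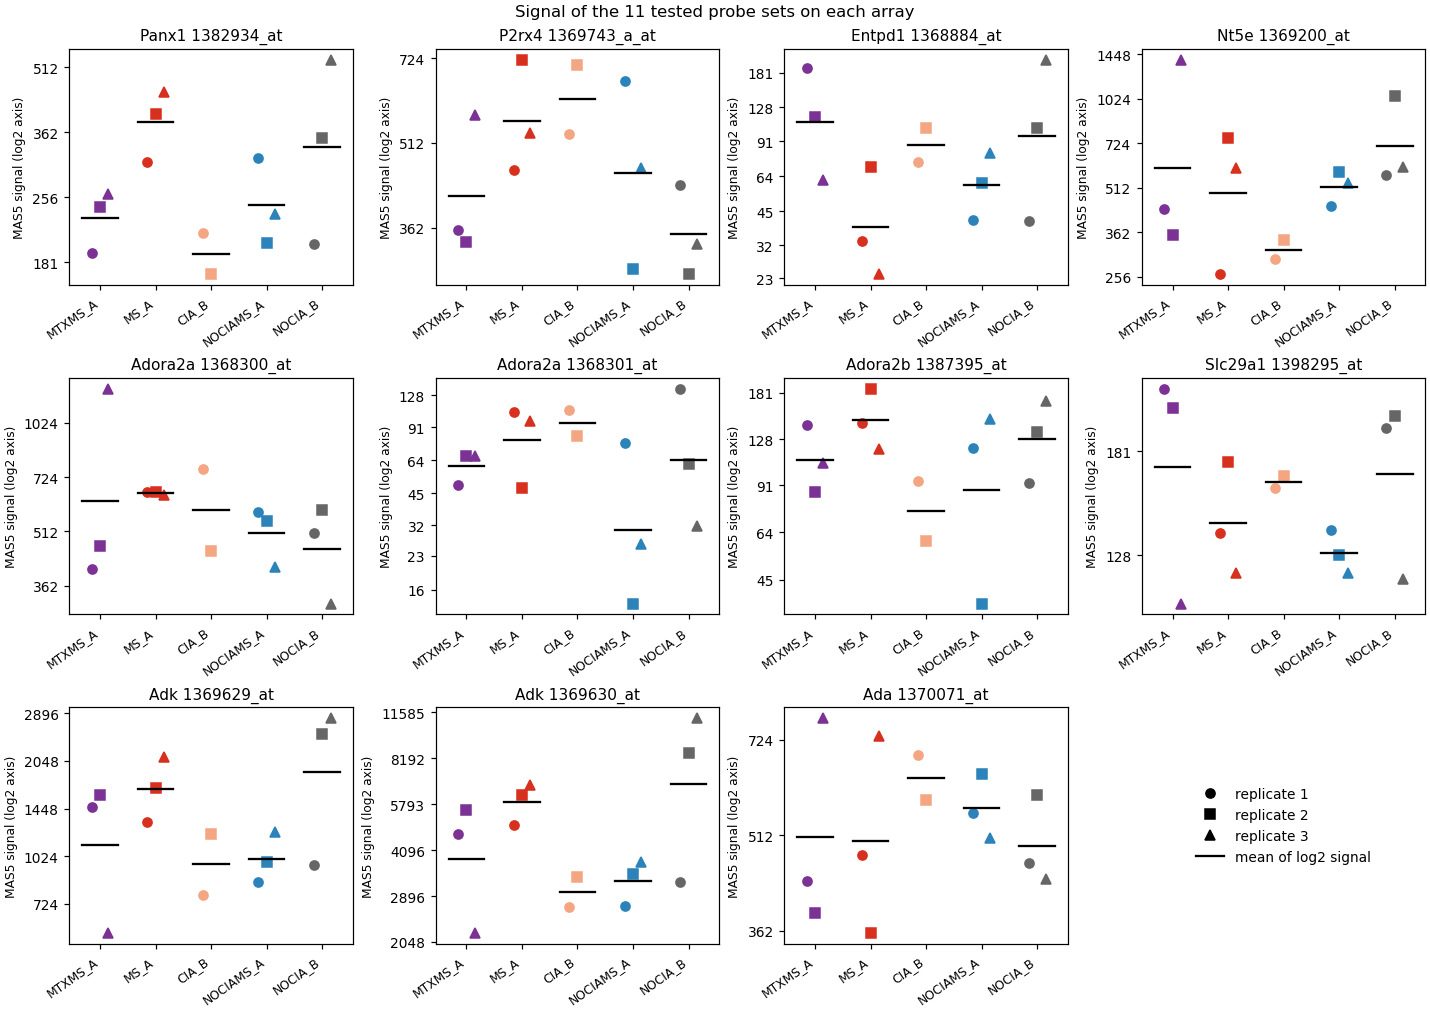
Signal (log2 axis) of each of the 11 tested probe sets on the 14 arrays, by group, with 1 point per array and a line at the mean of the log2 signal. Panx1, Adora2b and both probe sets of Adk lie higher in all 3 MS_A arrays than in both CIA_B arrays, and NOCIA_B replicates differ widely in Panx1, Entpd1 and Adk.

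Panx1 encodes pannexin 1, a large-pore membrane channel through which ATP leaves the cell. Its well measured probe set, 1382934_at, gave signals of 309, 399.9 and 449 in MS_A, against 212 and 169.6 in CIA_B. The groups did not overlap, and the mean log2 signal was 8.57 ± 0.28 in MS_A (SD, n = 3) and 7.57 ± 0.23 in CIA_B (SD, n = 2). The log2 fold change was 1.01 ± 0.37 (SE, adjusted p = 0.616), with a 95% interval of 0.21 to 1.81. Panx1 was the 1 member of 11 at the thresholds of the study in this comparison, where 3.62% of all tested probe sets reached them. MTXMS_A arrays gave 189.9, 243 and 259.7, each below every MS_A array (the 1 member of 11 so separated, where 22.8% of all tested probe sets were), and the log2 fold change of MTXMS_A against MS_A was -0.74 ± 0.33 (adjusted p = 0.324). Against CIA_B, MTXMS_A overlapped with it, at 0.27 ± 0.37 (adjusted p = 1).

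In healthy rats the Panx1 signals were 315, 200.5 and 234 in NOCIAMS_A, against 199.5, 351 and 533 in NOCIA_B. One NOCIA_B array thus lay within the CIA_B range and the other 2 lay above it, with replicate 3 the highest of all 14. The log2 fold change was -0.45 ± 0.33 (adjusted p = 0.751) for NOCIAMS_A against NOCIA_B and -0.82 ± 0.37 (adjusted p = 0.583) for CIA_B against NOCIA_B. Without NOCIA_B replicate 3 and MTXMS_A replicate 3, CIA_B against NOCIA_B gave -0.48 ± 0.33. The remaining 2 probe sets of Panx1 were dim, between 2.5 and 105 for 1381881_at and between 2.51 and 56 for 1396981_at. Their signals correlated with those of 1382934_at at r = 0.36 and r = -0.10 over the 14 arrays, and each shared its sign of change with it in 4 of 6 comparisons. In MS_A against CIA_B they were at -0.27 ± 1.28 and 0.24 ± 0.88, with signals below the median on all 14 arrays and errors too wide to give a direction, so Panx1 was measured by 1 probe set.

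Upstream sequence is shown for the members separated in MS_A against CIA_B: Panx1, Adk and Adora2b (higher) and Entpd1 (lower, at low signal). The 250 bases before the RefSeq start site are given below 5' to 3' on the gene's strand, build GRCr8. Of the 10 genes, 9 had an entry, and the exception was Adora2a. Capitals mark matches, on either strand, to the GC box (GGGCGG), the CCAAT box (CCAAT), the GATA motif (AGATAA) or the ETS motif (CCGGAA).
Panx1, chr8:20171201-20171450, minus strand: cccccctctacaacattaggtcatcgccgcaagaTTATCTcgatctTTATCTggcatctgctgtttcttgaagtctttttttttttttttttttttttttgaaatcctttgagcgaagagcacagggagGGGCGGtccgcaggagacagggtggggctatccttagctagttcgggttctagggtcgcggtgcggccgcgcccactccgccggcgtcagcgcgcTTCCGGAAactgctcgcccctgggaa
Adk, chr15:3295746-3295995, minus strand: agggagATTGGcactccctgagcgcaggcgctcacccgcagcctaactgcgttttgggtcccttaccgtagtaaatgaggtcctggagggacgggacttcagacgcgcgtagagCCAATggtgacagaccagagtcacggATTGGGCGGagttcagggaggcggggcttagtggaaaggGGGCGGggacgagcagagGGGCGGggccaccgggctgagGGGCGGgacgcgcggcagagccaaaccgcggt
Adora2b, chr10:47439462-47439711, plus strand: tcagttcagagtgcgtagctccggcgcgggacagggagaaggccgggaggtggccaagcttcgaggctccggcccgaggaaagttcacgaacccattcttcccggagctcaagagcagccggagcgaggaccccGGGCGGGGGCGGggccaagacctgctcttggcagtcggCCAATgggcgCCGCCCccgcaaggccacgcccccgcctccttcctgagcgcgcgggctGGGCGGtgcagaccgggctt
Entpd1, chr1:249422614-249422863, plus strand: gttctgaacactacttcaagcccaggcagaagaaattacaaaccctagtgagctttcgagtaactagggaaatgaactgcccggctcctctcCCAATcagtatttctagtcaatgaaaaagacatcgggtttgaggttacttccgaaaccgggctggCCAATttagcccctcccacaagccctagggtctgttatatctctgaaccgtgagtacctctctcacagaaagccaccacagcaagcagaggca
Among 33469 rat promoters of this length, 30.5% hold a GC box, 34% a CCAAT box, 10.3% the GATA motif and 12.6% the ETS motif. The Panx1 window held 1 GC box, 2 GATA motifs and 2 ETS motifs that overlap each other. The Adk and Adora2b windows held 4 GC boxes each, with 3 CCAAT boxes in Adk, of which 1 overlaps a GC box by its last bases, and 1 in Adora2b. The Entpd1 window held 2 CCAAT boxes and no GC box. Such a match is a description of the letters and not a measured site.

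P2rx4 encodes the P2X4 receptor, an ATP-gated cation channel of macrophages and other leukocytes. Its signal was 532 and 702 in CIA_B, against 431, 299 and 339 in NOCIA_B, without overlap. This was a log2 fold change of 0.79 ± 0.35 (adjusted p = 0.583), a fold below 2. Nt5e was the only further member whose CIA_B and NOCIA_B arrays did not overlap, in the lower direction, so 2 of 11 members were separated where 21% of all tested probe sets were. Signals of P2rx4 were 359, 342 and 573 in MTXMS_A, 459, 719 and 534 in MS_A and 659, 306 and 463 in NOCIAMS_A, and each of these groups overlapped with CIA_B. P2rx4 had a log2 fold change of -0.12 ± 0.35 for MS_A against CIA_B and -0.57 ± 0.35 for MTXMS_A against CIA_B (adjusted p = 0.918 and 1), with 95% intervals of -0.89 to 0.64 and -1.33 to 0.20. P2rx7 encodes the P2X7 receptor, which opens at high ATP concentrations and is known for triggering release of interleukin-1 beta in macrophages. Its only probe set was dim on all arrays, between 2.1 and 66, and was not tested. P2rx4 and P2rx7 lie on chromosome 12 with 1 annotated gene between them.

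Entpd1 encodes CD39, the enzyme that takes ATP and ADP to AMP. Its signal was 33.5, 70.4 and 23.9 in MS_A, against 74.1 and 104 in CIA_B, so every MS_A array lay below both CIA_B arrays. This gave a log2 fold change of -1.20 ± 0.67 (adjusted p = 0.616). In MTXMS_A the signals were 189.9, 117 and 61.4, of which 2 lay above all MS_A arrays and 1 within their range. The log2 fold change of MTXMS_A against MS_A was 1.53 ± 0.60 (adjusted p = 0.285), with a 95% interval of 0.22 to 2.84. Entpd1 was the 1 member of 11 at the thresholds of the study in this comparison, where 4.5% of all tested probe sets reached them. Without MTXMS_A replicate 3 and NOCIA_B replicate 3 the value was 1.96 ± 0.53 (adjusted p = 0.175). Healthy rats gave 41.1, 59.9 and 80.6 in NOCIAMS_A, against 40.7, 104 and 206 in NOCIA_B, with overlap and a log2 fold change of -0.71 ± 0.60 (adjusted p = 0.766). Entpd1 lay above the array median on only 2 of 14 arrays, MTXMS_A replicate 1 and NOCIA_B replicate 3. It thus passed the filter in part through an array of the group where it was high. No MS_A or CIA_B array lay above its median for Entpd1, so its counts among the members are a description only. A filter that asks for a signal above the median on 7 arrays left this probe set out.

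Nt5e encodes CD73, which takes AMP to adenosine. Its signal was 293 and 341 in CIA_B, against 567, 1044 and 603 in NOCIA_B, without overlap. Their log2 fold change was -1.17 ± 0.57 (adjusted p = 0.583). The 3 NOCIAMS_A arrays, at 444, 577 and 532, also lay above both CIA_B arrays. In arthritic rats after therapy Nt5e ranged widely, at 432, 353 and 1388 in MTXMS_A and 260.4, 756 and 598 in MS_A. All MTXMS_A arrays lay above both CIA_B arrays, by 0.91 ± 0.57 (adjusted p = 1), and the highest signal came from MTXMS_A replicate 3, 1 of the arrays that stood apart. MS_A overlapped with CIA_B, at 0.63 ± 0.57 (adjusted p = 0.721).

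Of the 2 enzymes of the surface pathway, Entpd1 was lowest in mean in MS_A, at low signal, and Nt5e was lowest in mean in CIA_B. Neither lowest mean was resolved from the next. For Entpd1, NOCIAMS_A was higher by 0.61 against a larger SD of 0.80. For Nt5e, MS_A was higher by 0.63 against 0.81. Their log2 signals correlated at r = 0.03 over the 14 arrays.

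Adora2a encodes the A2a receptor, through which adenosine restrains T cells and neutrophils. Its brighter probe set, 1368300_at, gave 659, 659 and 647 in MS_A, the closest replicates of any tested member (SD 0.01 on the log2 scale). It gave 403, 466 and 1273 in MTXMS_A and 761 and 452 in CIA_B, both of which span the MS_A values. In healthy rats it gave 581, 546 and 409 in NOCIAMS_A, against 508, 587 and 323 in NOCIA_B. The MS_A arrays lay above all NOCIAMS_A arrays, as for both Adk probe sets (3 of 11 members separated, where 17.9% of all tested probe sets were), by 0.37 ± 0.40 (adjusted p = 0.852), and it did not reach an unadjusted p of 0.05 in any comparison. In MTXMS_A the highest of the 3 values again came from replicate 3.

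The dimmer probe set of Adora2a, 1368301_at, gave 108, 47.3 and 97.2 in MS_A, against 77.2, 13.8 and 26.1 in NOCIAMS_A, with overlap. At 1.38 ± 0.62 (adjusted p = 0.81), this was the 1 member of 11 at the thresholds of the study in MS_A against NOCIAMS_A, where 1.87% of all tested probe sets reached them. All 6 of these arrays lay below their array median for this probe set, which was above it on only 2 of 14 arrays, CIA_B replicate 1 and NOCIA_B replicate 1. In the same comparison 6 of 6 NK cell and 8 of 9 platelet markers were higher, with median log2 fold changes of 0.76 and 0.74, and their part was not tested. Both probe sets correlated at r = 0.35 over the 14 arrays and had the same sign in 3 of 6 comparisons, so a direction for Adora2a depended on the probe set taken. For MTXMS_A against CIA_B the dimmer set had 49.2, 67 and 66.6, against 109.9 and 82.6, without overlap and at -0.66 ± 0.69 (adjusted p = 1), while the brighter set was at 0.08 ± 0.45. That comparison had 2 of 11 members without overlap, this one and Nt5e, where 21.8% of all tested probe sets were separated, and 0 of 11 at the thresholds of the study, where 2.28% of all reached them. The dimmer set passed the filter in part through CIA_B replicate 1, an array of the group where it was high. Its place in this count is thus a description only.

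Adora2b encodes the A2b receptor, which needs higher adenosine concentrations than A2a. Its signal was 144, 186 and 119 in MS_A, against 93.5 and 59.8 in CIA_B, without overlap. It had a log2 fold change of 0.98 ± 0.51 (adjusted p = 0.616), with a 95% interval of -0.14 to 2.10. MTXMS_A gave 142, 86.5 and 107 and overlapped with both. Healthy rats gave 119.8, 37.6 and 148 in NOCIAMS_A, against 92.1, 136 and 169.8 in NOCIA_B, with overlap, and the lowest Adora2b signal of all arrays was NOCIAMS_A replicate 2. NOCIAMS_A against NOCIA_B gave -0.56 ± 0.46 (adjusted p = 0.761), and without that array it was 0.05.

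Slc29a1 encodes the equilibrative nucleoside transporter ENT1, which carries adenosine across the membrane in both directions. Its group means lay between 7.01 ± 0.10 in NOCIAMS_A and 7.42 ± 0.57 in MTXMS_A (SD, n = 3 each). Signals were 223, 209 and 109 in MTXMS_A, 138, 175 and 121 in MS_A, 160.2 and 167 in CIA_B, 139, 128 and 121 in NOCIAMS_A and 196, 204 and 118 in NOCIA_B. No 2 groups compared were separated. Its log2 fold change in MS_A against CIA_B was -0.20 ± 0.33, with a 95% interval of -0.92 to 0.53.

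Adk encodes adenosine kinase, which returns adenosine to AMP inside the cell. It was measured by 2 probe sets whose log2 signals correlated at r = 0.98 over the 14 arrays and had the same sign in 6 of 6 comparisons. The brighter, 1369630_at, gave 4952, 6199 and 6699 in MS_A, against 2667 and 3343 in CIA_B. These groups did not overlap, and the log2 fold change was 0.98 ± 0.49 (adjusted p = 0.616). The dimmer, 1369629_at, gave 1317, 1682 and 2100.3 in MS_A, against 771 and 1206 in CIA_B, also without overlap, at 0.79 ± 0.51 (adjusted p = 0.641). Panx1, Adora2b and the 2 Adk probe sets were higher and Entpd1 was lower without overlap in MS_A against CIA_B, 5 of 11 members where 35.9% of all tested probe sets were separated.

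In healthy rats the order was the other way. The brighter Adk probe set gave 2692, 3410.3 and 3732 in NOCIAMS_A, against 3209, 8556 and 11087 in NOCIA_B. The groups overlapped, as they did for every member (0 of 11 separated, where 9.61% of all tested probe sets were), since NOCIA_B replicate 1 lay among the NOCIAMS_A arrays while replicates 2 and 3 were the highest of all 14. The log2 fold change was -1.05 ± 0.44 (adjusted p = 0.747), the 1 member of 11 at the thresholds of the study, which 2.3% of all tested probe sets reached. Against the same NOCIA_B arrays, CIA_B had a log2 fold change of -1.17 ± 0.49 (adjusted p = 0.583), also the 1 member of 11 at these thresholds, which 4.68% of all reached. Both comparisons share the NOCIA_B arrays. Without NOCIA_B replicate 3 and MTXMS_A replicate 3 they gave -0.69 ± 0.37 and -0.81 ± 0.40. In that setting Adk was not at the thresholds of the study in either, and the 1 member at them was Adora2a 1368301_at in NOCIAMS_A against NOCIA_B and Nt5e in CIA_B against NOCIA_B. Adora2a 1368301_at passed the filter in part through NOCIA_B replicate 1, an array of the group where it was high. The share over all tested probe sets in that setting is not given here, so these counts are a description only.

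Adk in MTXMS_A was split between arrays. The brighter probe set gave 4615, 5541 and 2191, of which the first 2 lay among the MS_A arrays or near them and replicate 3 lay below both CIA_B arrays. Its log2 fold change was 0.36 ± 0.49 for MTXMS_A against CIA_B and -0.63 ± 0.44 for MTXMS_A against MS_A (adjusted p = 1 and 0.528). Without MTXMS_A replicate 3 and NOCIA_B replicate 3 these were 0.76 and -0.22.

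Ada encodes adenosine deaminase, which turns adenosine into inosine and whose loss causes immunodeficiency. Signals were 434, 386 and 783 in MTXMS_A, 477, 359 and 734 in MS_A and 684 and 581 in CIA_B. Healthy rats gave 554, 639 and 507 in NOCIAMS_A, against 462, 592 and 436 in NOCIA_B. Every pair of groups compared overlapped, and the log2 fold changes ran between -0.33 ± 0.34 (MS_A against CIA_B, adjusted p = 0.754) and 0.36 ± 0.34 (CIA_B against NOCIA_B, adjusted p = 0.695). The 95% interval in MS_A against CIA_B, -1.09 to 0.42, does not exclude a fold of 2 lower.

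**Figure D2:**
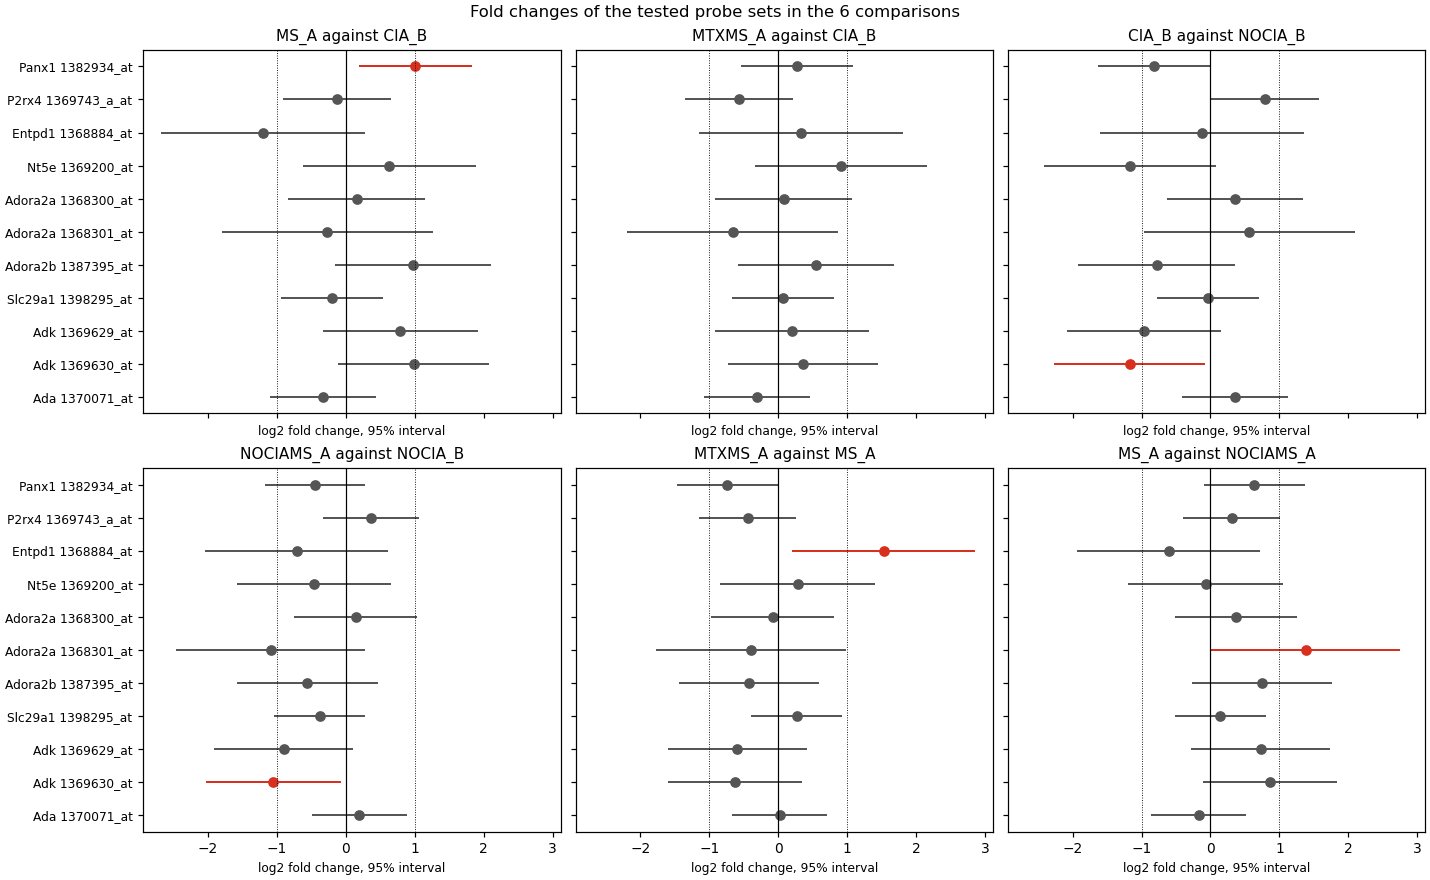
Log2 fold change of the 11 tested probe sets in the 6 comparisons, with 95% intervals, where red marks an unadjusted p of 0.05 with a fold of 2 and dotted lines mark a fold of 2. Panx1 is red in MS_A against CIA_B, Adk 1369630_at in both comparisons with NOCIA_B, Entpd1 in MTXMS_A against MS_A and Adora2a 1368301_at in MS_A against NOCIAMS_A.

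The order of the group means was rarely resolved. For Panx1 the means ran MS_A, NOCIA_B, NOCIAMS_A, MTXMS_A and CIA_B, and for Adk 1369630_at they ran NOCIA_B, MS_A, MTXMS_A, NOCIAMS_A and CIA_B. Over the tested probe sets, neighbours in these orders differed by more than the larger of their SDs in 2 cases, Panx1 in MTXMS_A against CIA_B (0.27 against an SD of 0.24) and Entpd1 in CIA_B against NOCIAMS_A (0.59 against 0.49). All other neighbours lay within their spread.

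Whether stimulation went with a different change in arthritic than in healthy rats was tested by subtracting the log2 fold change of NOCIAMS_A against NOCIA_B from that of MS_A against CIA_B. The difference was 2.03 ± 0.66 for Adk 1369630_at, 1.69 ± 0.68 for Adk 1369629_at, 1.45 ± 0.49 for Panx1 and 1.53 ± 0.69 for Adora2b. Their adjusted p was 0.36 for the first 3 and 0.376 for Adora2b, so none passed. These 4 of 11 probe sets, of 3 genes, were at the thresholds of the study, all in the positive direction. Of all tested probe sets, 10.2% were at these thresholds in either direction and 5.38% in the positive direction. At an unadjusted p of 0.05 alone 13.1% of all tested probe sets passed. In each of the 4, the fold change was above 0 in arthritic rats and below 0 in healthy rats. Without NOCIA_B replicate 3 and MTXMS_A replicate 3 the differences were 1.67, 1.41, 1.12 and 1.33 in the same order, and Adora2b was not at the thresholds of the study. The median difference was 0.82 over the 11 member probe sets, against 0.20 over 47 probe sets of other purine genes and -0.11 over all tested. This member median is the value of the dim Adora2a 1368301_at (0.82 ± 0.93), where the brighter Adora2a probe set was at 0.02 ± 0.60. Adk and Adora2a each count with 2 probe sets in it.

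**Figure D3:**
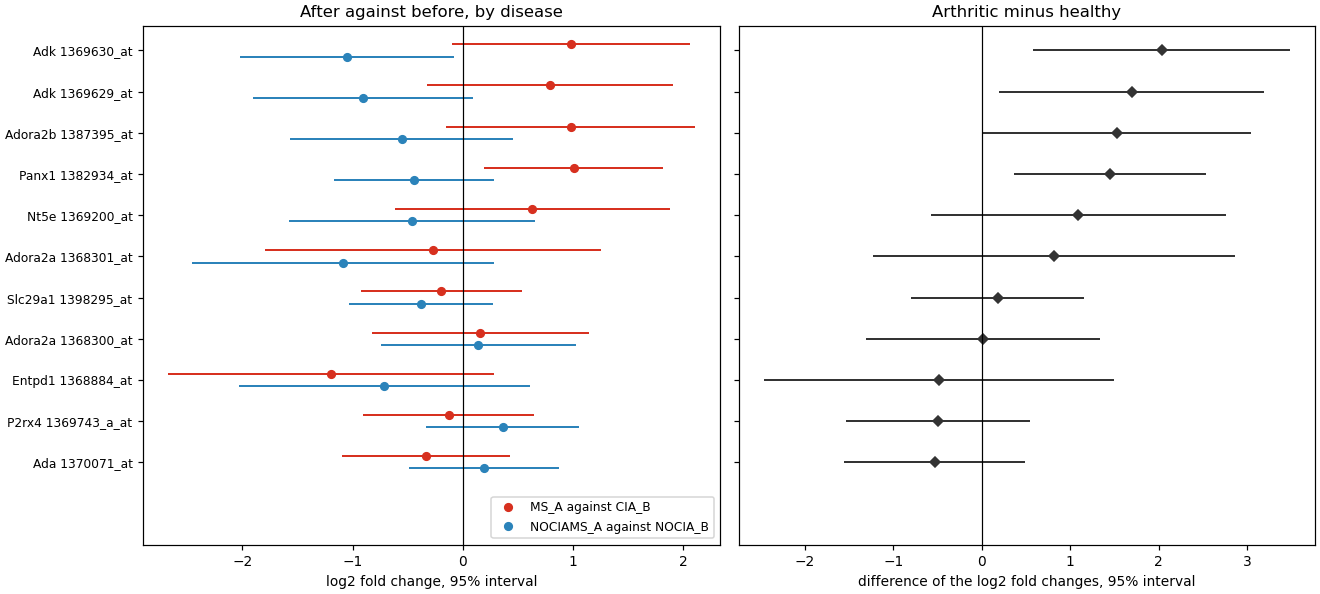
Left, log2 fold changes of MS_A against CIA_B (red) and NOCIAMS_A against NOCIA_B (blue), and right, their difference, each with 95% intervals, for the 11 tested probe sets ordered by the difference. The intervals of the difference lie above 0 for both Adk probe sets, Adora2b and Panx1.

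Platelet markers had the direction of Adk, Panx1 and Adora2b in MS_A against CIA_B and in NOCIAMS_A against NOCIA_B. All 9 platelet markers tested (Pf4, Ppbp, Gp9 and others) had higher signals in MS_A than CIA_B, with a median log2 fold change of 1.26, and 9 of 9 had lower signals in NOCIAMS_A than NOCIA_B, with a median of -0.95. In CIA_B against NOCIA_B 9 of 9 were lower, with a median of -1.69. Their summed signal lay between 154922 and 189491 in MS_A, against 87231 and 119630 in CIA_B. In healthy rats it lay between 133534 and 148495 in NOCIAMS_A, against 126210, 232068 and 373992 in NOCIA_B, and in MTXMS_A it was 202692, 209112 and 102362. The array order within NOCIA_B and the low replicate 3 of MTXMS_A were those of Adk. Panx1 and Adora2b had the same array order within NOCIA_B. In MTXMS_A, however, replicate 3 was the highest for Panx1 (259.7) and not the lowest for Adora2b. In MTXMS_A against CIA_B 9 of 9 platelet markers were higher, with a median of 0.80, where the groups overlapped for Adk, Panx1 and Adora2b. Erythroid markers were higher in MS_A than CIA_B for 6 of 7, with a median log2 fold change of 0.71. Their summed signal was 207081 in NOCIA_B replicate 3 and 2482 in MTXMS_A replicate 3, against 43902 to 96478 on the other 12 arrays. The part of platelets or erythroid cells in the values of Adk, Panx1 and Adora2b was not tested.

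**Figure D4:**
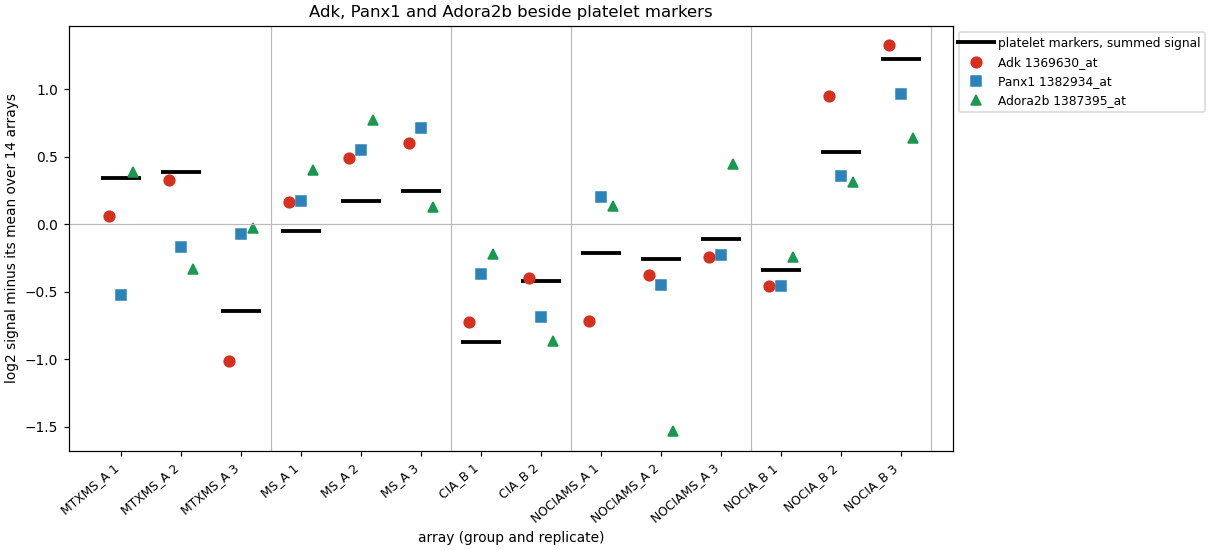
Log2 signal minus its mean over 14 arrays for Adk 1369630_at, Panx1 1382934_at and Adora2b 1387395_at (points) and for the summed signal of 9 platelet markers (black bars), by array. Adk lies high where the platelet sum is high, as in NOCIA_B replicates 2 and 3, and low where it is low, as in MTXMS_A replicate 3 and CIA_B.

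Markers of other cells went along with some of these comparisons. In MS_A against CIA_B 4 of 5 monocyte, 5 of 6 NK cell and 4 of 4 B cell markers were higher. Their median log2 fold changes were 0.55, 0.42 and 0.45. T cell markers were lower there for 6 of 9, with a median of -0.43, and neutrophil markers were split (3 higher and 4 lower). In MTXMS_A against MS_A, where Entpd1 was higher and Panx1 lower, 7 of 7 erythroid markers, 6 of 6 NK cell markers and 4 of 5 monocyte markers were lower, with median log2 fold changes of -1.65, -0.87 and -0.75. So were 8 of 9 platelet, 4 of 4 B cell and 8 of 9 T cell markers, with medians of -0.25, -0.21 and -0.18, while neutrophil markers were split (3 higher and 4 lower). In CIA_B against NOCIA_B, where P2rx4 was higher, 6 of 7 neutrophil and 8 of 9 T cell markers were higher, with medians of 0.81 and 0.31, and 3 of 5 monocyte, 4 of 6 NK cell and 3 of 4 B cell markers were higher, with medians of 0.04, 0.08 and 0.10. In that comparison 7 of 7 erythroid markers were lower, with a median of -1.28, beside the 9 of 9 platelet markers given above. In NOCIAMS_A against NOCIA_B 6 of 7 neutrophil, 5 of 5 monocyte and 4 of 4 B cell markers were higher. Their medians were 0.89, 0.38 and 0.42. NK cell markers (6 of 6) and erythroid markers (6 of 7) were lower there, with medians of -0.30 and -0.57. T cell markers were split (5 higher and 4 lower). The part of these cells in the values of Entpd1, Panx1, P2rx4, Adk and Adora2b was not tested.

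Among themselves the members formed few pairs. Over the 14 arrays, log2 signals correlated at r = 0.71 for Panx1 with Adk, r = 0.63 for Panx1 with Adora2b and r = 0.59 for Adora2a with Ada, and the remaining pairs lay between r = -0.54 (Entpd1 with Adora2a) and r = 0.47. These arrays span 5 groups, so such values mix differences between groups with those within them. The probe sets of other genes most like Adk were Prkar2b, a regulatory subunit of protein kinase A (r = 0.988), Kcnab1, a potassium channel subunit (r = 0.985), and Osbpl1a (r = 0.983). Those most like Panx1 were Sav1 (r = 0.916), Mid1ip1 (r = 0.909) and Thumpd3 (r = 0.895). The nearest were Depdc1 for Adora2b (r = 0.869), Ibtk for Entpd1 (r = 0.841), Pld2 for Nt5e (r = 0.834), Ufc1 for Adora2a (r = 0.923), Mthfs for Ada (r = 0.906), Map4k1 for P2rx4 (r = 0.809) and Zfp422 for Slc29a1 (r = 0.792).

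A list of 57 further purine genes put the members beside the rest of the pathway. Of these, 50 were on the array and 47 probe sets of 39 genes were tested, and 0 passed the adjustment in any comparison. In MS_A against CIA_B, 5 of 47 were higher and 1 was lower at the thresholds of the study, where 2.57% and 1.05% of all tested probe sets were. The higher ones were P2rx1, the ATP-gated channel of platelets (1.80 and 1.60 on the log2 scale for its 2 probe sets), P2ry12, the platelet ADP receptor (1.44 and 1.68), and Adora1, the A1 adenosine receptor (1.59 ± 0.72, for the 1 of its 2 probe sets that was tested). The untested Adora1 probe set was at -0.16 ± 0.90 here and -0.43 ± 0.90 in CIA_B against NOCIA_B. In both comparisons the tested one overlapped between the groups. Entpd6, a further nucleotidase, was the lower one, at -1.73 ± 0.69. In CIA_B against NOCIA_B, 6 of 47 were lower and 0 higher, where 3.83% and 0.848% of all were. They were P2rx1 (-1.85 and -1.70), P2ry12 (-1.57 and -1.65), Adora1 (-1.75 ± 0.72) and the nucleotidase Nt5c3a (-1.33 ± 0.56). P2rx1 and P2ry12 are platelet genes by background, and both had the direction of Adk and Panx1 in these comparisons.

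In MTXMS_A against CIA_B 1 of 47 reached the thresholds, where 2.28% of all did, Adora1 at 1.66 ± 0.72, with overlap. The untested probe set of Adora1 was at -1.20 ± 0.90 in that comparison. In MTXMS_A against MS_A 1 of 47 did, where 4.5% of all did, P2ry1, an ADP receptor also found on platelets, at -1.61 ± 0.51. Atic, the enzyme of purine synthesis that methotrexate metabolites are known to inhibit, was at -0.05 ± 0.23 in MTXMS_A against MS_A, with a 95% interval of -0.56 to 0.46. In NOCIAMS_A against NOCIA_B 1 of 47 reached the thresholds, where 2.3% of all did, Entpd6 at 1.39. In MS_A against NOCIAMS_A 2 of 47 did, where 1.87% of all did, P2ry1 (1.23, higher) and Entpd6 (-2.07, lower). The median log2 fold change over the 11 member probe sets, beside that over all tested, was 0.16 and -0.01 in MS_A against CIA_B, 0.20 and -0.02 in MTXMS_A against CIA_B and -0.12 and 0.07 in CIA_B against NOCIA_B. It was -0.46 and 0.09 in NOCIAMS_A against NOCIA_B, -0.39 and -0.01 in MTXMS_A against MS_A and 0.37 and -0.05 in MS_A against NOCIAMS_A.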

How the data were processed

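RNA of the 14 PBMC samples was extracted together, per the labels, and hybridised to 1-colour arrays. The authors deposited 1 intensity per probe set, the MAS5 signal from the affy package (version not stated), on a linear scale on which each array has a mean of 500 once the outer 2% on both sides are trimmed. Arrays carry no counts, and their number and the signal over background limit the precision. The labels' group names were matched here to the group codes by description. Probe sets with 1 symbol numbered 20826, with several 436 and with none 9780. limma 3.58.1 (R 4.3.3) was run on log2 signal, no pseudocount added, with a mean for each group over all 14 arrays and empirical Bayes moderation. Two-sided p-values were adjusted by Benjamini-Hochberg over 18515 probe sets. Alternatives were another normalization, filter, pseudocount, weighting, moderation, block and sample set, each probe set of a gene, and each array left out. All member probe sets are named. From the list of other purine genes, up to 4 per direction at the thresholds were named by p, and Atic was added after its values were seen. Genes most like a member were ranked by Pearson r over probe sets with 1 symbol. The members, the purine list and the marker lists of T, B, NK, monocyte, neutrophil, platelet and erythroid cells were chosen with earlier results of these data known. B cell markers were higher in MS_A than CIA_B for 4 of 4 tested (median log2 fold change 0.45). Fits were tested on simulated data.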

Additional observations from a re-analysis of the deposited data

How the results depend on the processing

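Counts of member probe sets at the thresholds of the study moved with the processing. The share over all tested probe sets in each setting, or with each array left out, is not given here. A change in a count was therefore not read as a result about the members. The 1 of MS_A against CIA_B was 0 with quantile normalization, with a pseudocount of 32 and with the replicate number as a block. It was 2 (Panx1 and Entpd1) without NOCIA_B replicate 3 and MTXMS_A replicate 3, a setting chosen after seeing the data. The 1 of CIA_B against NOCIA_B was 3 with array weights and 0 without moderation. With only the arrays compared it was Nt5e in place of Adk. The 1 of NOCIAMS_A against NOCIA_B was 3 with array weights, and 0 with quantile normalization, without moderation and with only the arrays compared. The 1 of MTXMS_A against MS_A was 0 with a filter of 7 arrays. The 1 of MS_A against NOCIAMS_A was 0 without a filter, with a filter of 7 arrays, with a pseudocount of 32, without moderation and with only the arrays compared. The 4 of the difference stayed between 3 and 5 in these settings.

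With each array left out in turn, the counts ranged between 0 and 1 in MS_A against CIA_B (0 without CIA_B replicate 2 or MS_A replicate 3), between 0 and 1 in MTXMS_A against CIA_B (1, Nt5e, without MTXMS_A replicate 2) and between 0 and 3 in CIA_B against NOCIA_B (3 without NOCIA_B replicate 1, 2 without MS_A replicate 1 or MTXMS_A replicate 3, and 0 without either CIA_B array or NOCIA_B replicate 2 or 3). They ranged between 0 and 3 in NOCIAMS_A against NOCIA_B (3 without NOCIA_B replicate 1, and 0 without NOCIA_B replicate 2 or NOCIAMS_A replicate 2), and between 0 and 1 in MTXMS_A against MS_A (0 without replicate 1 or 3 of MS_A, or replicate 1 or 2 of MTXMS_A). In MS_A against NOCIAMS_A they ranged between 0 and 1, with 1 only without NOCIA_B replicate 1 or 3, NOCIAMS_A replicate 1 or 3, or MS_A replicate 2. In the difference they ranged between 2 and 4, with 2 without NOCIA_B replicate 2, NOCIA_B replicate 3 or CIA_B replicate 2.

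Of 287 alternative values of the 12 member fold changes at an unadjusted p of 0.05, 280 kept direction and side of the adjusted threshold. None of the 12 passed the adjustment as reported, so this count does not measure how firm they are. Panx1 in MS_A against CIA_B was -0.27 ± 1.28 with the dim probe set 1381881_at, in place of 1.01. Passing the adjustment under an alternative were 6 values. With array weights these were Adk 1369630_at in CIA_B against NOCIA_B (-1.42, adjusted p = 0.0348), and in the difference Adk 1369630_at (2.27, adjusted p = 0.0188), Adk 1369629_at (1.95, adjusted p = 0.0318) and Panx1 (1.55, adjusted p = 0.0251). Without NOCIA_B replicate 1 they were Adk 1369630_at (2.57, adjusted p = 0.0287) and Panx1 (1.83, adjusted p = 0.035) in the difference. The cause was not tested. The number of all tested probe sets that passed in these settings is not given here, so the 6 values do not set the members apart. Deviations from the group means correlated between r = -0.42 and 0.37 over 26 same-numbered pairs, with 10 above 0.1. For other pairs they lay between -0.30 and 0.39 over 52 pairs, with 14 above 0.1. These ranges do not settle whether the numbers pair samples, and the arrays were read as unpaired. The replicate block gave 0, 0, 1, 1, 1, 1 and 3 members at the thresholds over the 6 comparisons, in the order of the report, and the difference. Precision is limited by the number of arrays, 2 in CIA_B and 3 in each other group, and by low signal: the SD of P2rx7 in MTXMS_A was 2.69 on the log2 scale, against 0.24 for the brighter Panx1 1382934_at in the same arrays.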
